A study of Mus musculus with 6 samples.

Results

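The nuclear genes of oxidative phosphorylation were described here in endothelial cells of the embryonic mouse heart that carried 2, 1 or 0 intact copies of Dll4, the gene of a Notch ligand. Members were all protein-coding genes whose symbols begin like the subunits of complexes I to V (Nduf with a, b, c, s or v and a digit, Ndufab1, Sdha to Sdhd, Uqcr, Cyc1, Cox4 to Cox8 with a, b, c or i, and Atp5). That choice used names alone and took 86 of the 41214 rows in the deposited table. Complex I had 36 members, complex II 4, complex III 9, complex IV 20 and complex V 16. Atp5s, the remaining member, carries the prefix but is not a subunit. Ndufa4 and Ndufa4l2 were counted with complex IV, to which the Ndufa4 protein belongs. The symbols used here left out Usmg5 and Atpif1, which newer nomenclature places among the Atp5 names.

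Oxidative phosphorylation takes electrons from NADH and succinate, passes them through the respiratory complexes of the inner mitochondrial membrane to oxygen, and uses the proton gradient built on the way to make ATP. Complexes I, III, IV and V are assembled from nuclear-encoded subunits together with a few encoded in mitochondrial DNA, whereas complex II is wholly nuclear-encoded and also serves as an enzyme of the citric acid cycle. Endothelial cells are known for relying heavily on glycolysis for ATP, while their respiratory chain is needed for proliferation.

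All 6 libraries came from cells sorted as CD31+GFP+ from hearts carrying the Pdgfb-iCreERT2-IRES-EGFP transgene, in which the Pdgfb promoter drives a tamoxifen-activated Cre recombinase and a green fluorescent protein, in the vessel lining in particular. Tamoxifen was given at E13.5 and hearts were taken at E14.5, in days of embryonic age, in every group. The wt group came from a cross with wild-type females and kept 2 intact Dll4 copies, the het group (Dll4+/-) kept 1, and the KO group, from floxed parents on both sides, kept 0 where Cre had acted. Each group had 2 libraries, numbered in the labels as wt 4 and 5, het 2 and 3, and KO 1 and 2. Hearts came from several litters, but how litters and hearts were divided among libraries is not given, so p-values measure only the spread between these libraries, which may be technical.

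Library totals ran from 1537908 to 6501798 counts, and both KO libraries were deeper than any other. Dll4 followed the labels, with 196 and 183 CPM in wt (counts-per-million of a library, scaled by TMM factors, which are set so that most genes are level), 81.2 and 85.9 in het, and 19.4 and 13.7 in KO. The row of Lars2, annotated as the mitochondrial leucyl-tRNA synthetase gene, took 16.3% to 17.1% of counts in the wt and het libraries. In KO that row took 0.0572% and 0.0611%. Whether those reads came from Lars2 messenger RNA was not tested. No label gives a preparation date, so genotype and library preparation cannot be told apart in any KO comparison. All 7 endothelial markers were present, with a summed level of 4507 to 6051 CPM. In KO against wt Cdh5, Emcn and Eng fell and Kdr and Tek rose, whereas Tie1 and Pecam1 were not called. Of all genes tested, 17.3% fell and 14.7% rose in that comparison. Pecam1, the gene of the sorted antigen CD31, stood at 834 and 818 CPM in wt and 844 and 892 in KO. Cdh5 stood at 1981 and 1928 CPM in wt, 1808 and 1910 in het, and 421 and 381 in KO. It was 4.875-fold lower in KO than in wt. Cardiomyocyte markers, of a cell rich in respiratory chain transcripts, summed to 126 and 113 CPM in wt, 245 and 193 in het, and 60.6 and 52.3 in KO. Of the 9 tested, 4 fell in KO against wt and 9 in KO against het, beside 17.3% and 17.2% of all genes. Over the 6 libraries, markers of mural cells and fibroblasts summed to 55.6 to 251 CPM and of macrophages to 5.51 to 204. Epicardial markers summed to 71.7 to 119 CPM, and only 1 of these 4 genes had enough counts to be tested. Red cell markers summed to 118 to 417 CPM, with 1 gene at 0 in all libraries, and endocardial markers to 194 to 421. The part of these cells in the results was not tested. In sorted cells measured in bulk, fewer cells of a type and less RNA per cell cannot be told apart.

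Of the 86 members, 78 had enough counts to be tested, and the lowest count among these in any library was 11. The other 8 (Cox4i2, Cox6a2, Cox6b2, Cox7a1, Cox7b2, Cox8b, Cox8c and Ndufa4l2) did not exceed 10 counts in any library. All 12 ubiquitous members of complex IV were tested, and the untested ones are mostly isoforms known from heart and skeletal muscle, testis or low-oxygen states. Cox6a2, the heart and muscle form of Cox6a1, had 0 to 3 counts per library, and Cox7a1, the heart and muscle form of Cox7a2, had 0 to 7. Cox8b had 1 count in a single KO library, while Cox7b2 and Cox8c had none. A count of 0 leaves room for up to 3 counts, which is 0.39 to 2.14 CPM depending on the library.

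The members' summed level did not separate the groups. It was 12250 and 12650 CPM in the wt libraries, 13360 and 12030 in the het libraries, and 12480 and 13240 in the KO libraries, so the groups overlapped. Complex V made up the largest sum, with a mean CPM of 5056 ± 130 for wt, 5245 ± 314 for het and 5471 ± 214 for KO (SD, n = 2 each), where both KO libraries lay above both wt libraries and het replicate 2 lay between the KO libraries. Complex I followed with 3131 ± 13.8, 3133 ± 231 and 3060 ± 156 CPM, complex IV with 2171 ± 105.5, 2254 ± 310 and 2098 ± 48.3, and complex III with 1394 ± 50.3, 1372 ± 61.2 and 1361 ± 48.2. Complex II was the one complex whose KO libraries, at 806 and 907 CPM, both lay above all wt and het libraries. The latter spanned 664 to 701. Within that sum Sdha went from 234 and 219 CPM in wt to 404 and 419 in KO, while Sdhb and Sdhd were not called and Sdhc fell. Within the complex V sum Atp5b went from a mean of 1603 CPM in wt to 2080 in KO. The 13 messenger RNAs encoded in mitochondrial DNA behaved differently from the nuclear sums, with 12700 and 19530 CPM in wt, 16160 and 31210 in het, and 8663 and 7406 in KO.

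**Figure D1:**
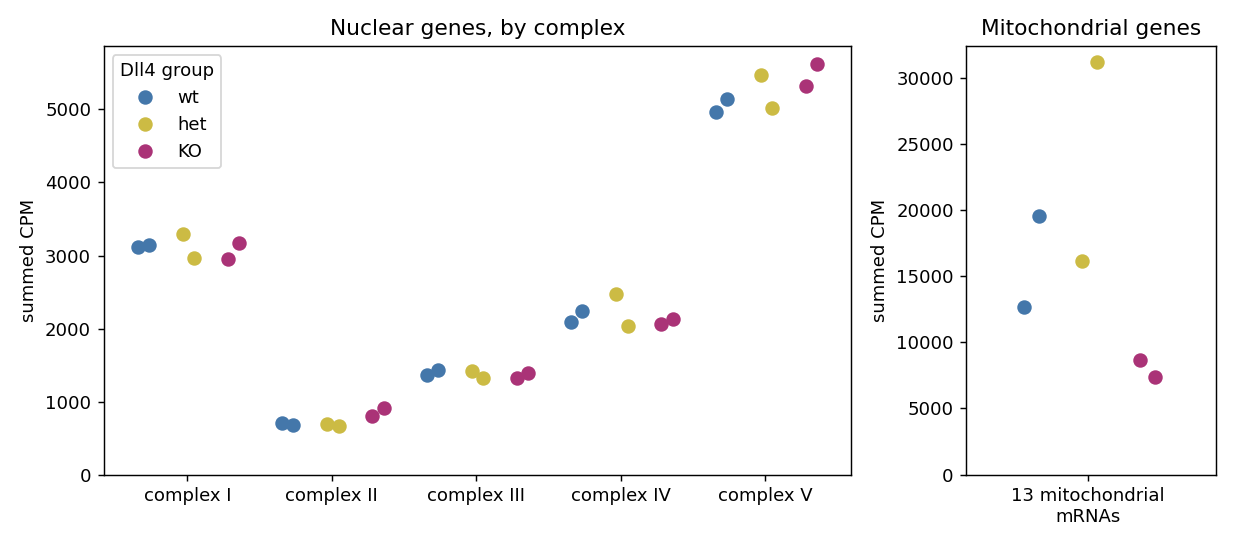
Summed CPM (TMM-scaled) of the nuclear members of each complex (left) and of the 13 mitochondrially encoded messenger RNAs (right), with 1 point per library, 2 for each Dll4 group. For complexes I, III and IV the groups overlap, for complex V the KO points lie above both wt points but overlap the het points, the KO points of complex II lie at 806 and 907 CPM above the rest, and the KO points of the mitochondrial genes lie at 8663 and 7406 CPM below the rest.

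Compared per kilobase of transcript, ATP synthase and cytochrome oxidase subunits stood highest in wt. Atp5b, the catalytic beta subunit of ATP synthase, had 837 ± 49.1 CPM per kilobase and Atp5g3, one of the genes of the membrane c ring, 626.5 ± 16.2 (SD, n = 2). Cox6a1 had 542 ± 66.2 and Cox4i1, which encodes the largest nuclear subunit of complex IV, 413 ± 2.68. The highest in complex III were Uqcrb at 346 ± 32.9 and the core protein gene Uqcrc1 at 231.5 ± 19.7. Complex I led with Ndufb8 at 226 ± 18.7 and Ndufa3 at 172 ± 1.43, both accessory subunits, and complex II with its iron-sulphur subunit Sdhb at 165 ± 0.134 and its anchor Sdhd at 125 ± 1.78. Ndufs1, the large iron-sulphur subunit of complex I, stood near the low end at 30.5 ± 4.21 CPM per kilobase.

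The KO group, with full loss of Dll4, was compared with wt, where genotype and library preparation cannot be told apart. Most differences were small: 73 of the 78 members, 12 of the 15 called ones among them, had a log2 fold change between -0.5 and 0.5, and the median was -0.005, beside -0.016 over all 10952 genes tested. By the edgeR quasi-likelihood test with Benjamini-Hochberg adjustment, 15 of 78 (19.2%) were called, beside 32.0% of all genes tested. Of these, 6 rose (14.7% of all genes did) and 9 fell (17.3% of all genes did). The 6 were Sdha, Ndufs1, Cox7c, Atp5b, Ndufab1 and Atp5a1, and the 9 were Cox7a2l, Ndufa13, Ndufb11, Atp5g3, Atp5o, Sdhc, Cox6a1, Atp5d and Cox5b. Both directions occurred in complexes I, II, IV and V. In complex I 2 rose and 2 fell of 36, in complex II 1 and 1 of 4, in complex IV 1 and 3 of 12, and in complex V 2 and 3 of 16. In 25 members both KO libraries lay above both wt libraries, and in 27 both lay below, beside 33.2% and 34.5% of all genes.

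The direction of most member calls differed with the scaling of libraries, which moved all genes, and with removal of a length trend. With library size alone, without scaling factors, the median of all genes moved to 0.35 and 41 members were called higher and 1 lower. Over all 10952 genes 3878 were called higher and 1034 lower in that fit. With the trend of counts on transcript length removed in each library, 1618 of 10903 genes were called higher and 1785 lower. Of the members 22 were called higher and 2 lower there, with a member median of 0.19, beside 0.017 over all genes in that fit. The count was 6 without KO replicate 1, 8 without KO replicate 2, 6 without wt replicate 4 and 7 without wt replicate 5. Sdha, Ndufs1, Cox7a2l and Atp5b were called in the same direction in all 17 alternatives run, and no other called member was.

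**Figure D2:**
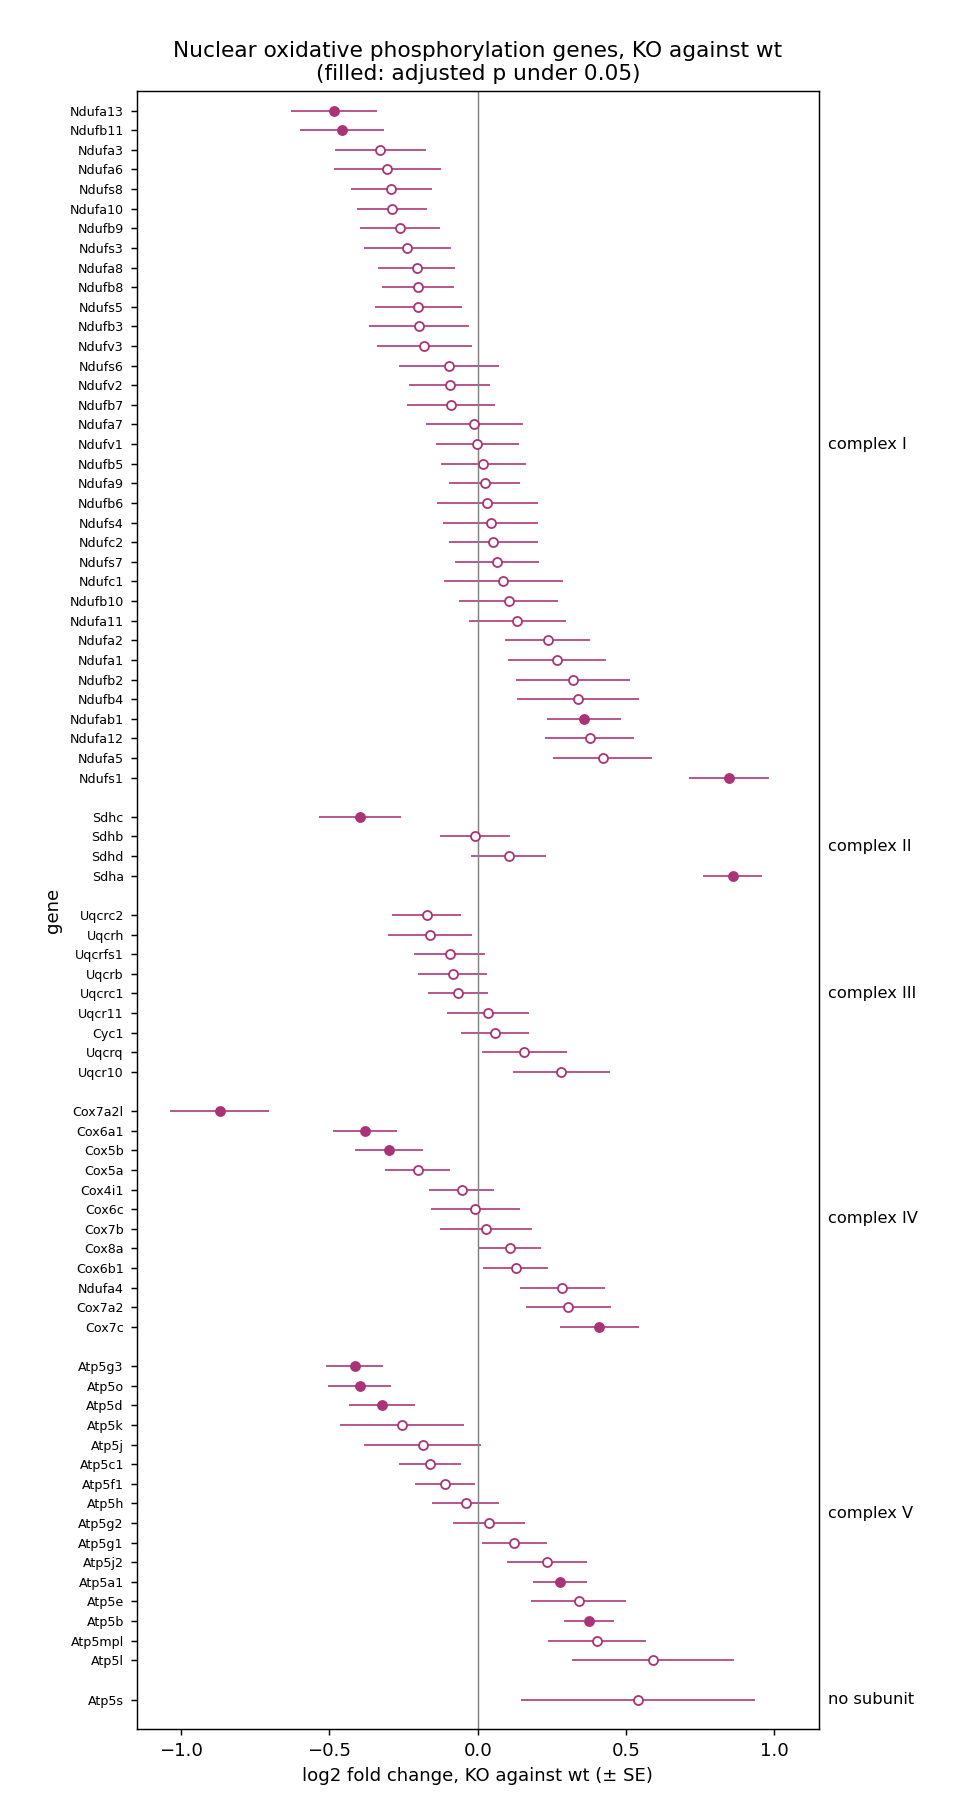
Log2 fold change of KO against wt (x axis, ± SE) for 77 of the 78 tested members, grouped by complex and ordered by value within it. Filled points passed an adjusted p of 0.05 (edgeR), 6 to the right of 0 and 9 to its left, and Sdha and Ndufs1 lie farthest right and Cox7a2l farthest left.

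The stretch of 250 bases before the annotated start is shown for Sdha and Atp5b, which rose, Cox7a2l, which fell, and Atp5k, which differed between KO and het. The sequences are from RefSeq on build GRCm38.p6, 5′ to 3′ on the gene's strand. Capitals mark the letters GCGCA, any base, GCGC on either strand, the consensus of nuclear respiratory factor 1 (Nrf1), a transcription factor known for binding promoters of respiratory chain genes. Sdha lies at chr13:74350241-74350490 on the minus strand, Atp5b at chr10:128083057-128083306 on the plus strand, Cox7a2l at chr17:83514334-83514583 on the minus strand, and Atp5k at chr5:108434400-108434649 on the minus strand. The GENCODE gene models reach farther upstream than the RefSeq starts, so that 40 of the 250 bases lie inside the model for Sdha, 34 for Atp5b, 49 for Atp5k and all 250 for Cox7a2l.
Sdha: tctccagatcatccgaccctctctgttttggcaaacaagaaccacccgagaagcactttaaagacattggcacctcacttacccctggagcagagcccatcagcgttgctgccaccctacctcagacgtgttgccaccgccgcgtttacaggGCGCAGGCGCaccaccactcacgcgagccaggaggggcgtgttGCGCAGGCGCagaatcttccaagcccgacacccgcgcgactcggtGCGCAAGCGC
Atp5b: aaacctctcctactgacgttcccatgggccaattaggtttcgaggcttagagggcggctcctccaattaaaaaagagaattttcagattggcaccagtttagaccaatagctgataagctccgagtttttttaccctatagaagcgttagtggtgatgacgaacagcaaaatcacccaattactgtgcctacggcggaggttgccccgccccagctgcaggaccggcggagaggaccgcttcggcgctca
Cox7a2l: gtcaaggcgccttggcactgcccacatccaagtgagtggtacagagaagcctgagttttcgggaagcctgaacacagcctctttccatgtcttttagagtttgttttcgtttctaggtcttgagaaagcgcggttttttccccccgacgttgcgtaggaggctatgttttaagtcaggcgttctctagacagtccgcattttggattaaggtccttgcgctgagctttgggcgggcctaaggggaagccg
Atp5k: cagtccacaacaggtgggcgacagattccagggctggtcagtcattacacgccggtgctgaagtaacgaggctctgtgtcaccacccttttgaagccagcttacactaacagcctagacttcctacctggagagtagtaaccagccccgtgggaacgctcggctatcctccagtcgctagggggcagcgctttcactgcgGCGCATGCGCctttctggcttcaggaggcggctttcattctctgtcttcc
Sdha held 3 matches, the last of them ending at the RefSeq start, Atp5k held 1, and Atp5b and Cox7a2l held none. Such a sequence was at hand for 67 of the 86 members, and 12 of these (17.9%) held the letters, beside 9.3% of 8452 tested protein-coding genes and 5.55% of all 16294. Of the 18 members called in either KO comparison 15 had a sequence, and among these Sdha, Cox6a1 and Atp5k held the letters, while Ndufs1, Sdhc and Atp5a1 could not be searched. The same was done for 5 other motifs on both strands, whose matches may overlap. CCGGAAG, bound by ETS factors such as Gabpa, was in 16.4% of the members and 15.4% of tested genes. AANATGGC, bound by Yy1, was in 5.97% and 4.65%, CACGTG (the E-box) in 7.46% and 8.74%, GGGCGG (bound by Sp1) in 34.3% and 63.0%, and TGACGTCA (the cyclic AMP response element) in 5.97% and 2.9%. A match is a description of letters and not a bound site.

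Complex I accepts electrons from NADH. Its entry arm is built on the core subunits Ndufv1, Ndufv2 and Ndufs1, and of these Ndufs1 alone was called. Ndufs1 (ENSMUSG00000025968, chromosome 1 from 63143596 to 63176833, GRCm38) stood at 72.4 and 88.0 CPM in wt, 87.5 and 88.6 in het, and 139.5 and 147 in KO. Both KO libraries lay above the other 4, and the level was 1.80-fold that of wt (log2 fold change 0.85 ± 0.14 SE, edgeR adjusted p = 6.43e-05). Its exons overlap those of Eef1b2 and Ino80dos, and 3 of its 6 counts were not whole, so part of its reads may belong to those genes. Ndufv1, which holds the NADH-binding site, was at 103 and 110 CPM in wt and 99.7 and 113 in KO. The ratio of Ndufs1 to Ndufv1 per kilobase was accordingly 0.444 and 0.505 in wt, 0.423 and 0.543 in het, and 0.885 and 0.821 in KO.

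In the arm that reduces ubiquinone, the core subunits Ndufs3, Ndufs7 and Ndufs8 were not called. Ndufs8 was at 104 and 92.4 CPM in wt, 88.3 and 85.2 in het, and 80.3 and 80.9 in KO (log2 fold change -0.29 ± 0.14, edgeR adjusted p = 0.111). Ndufs3 was at 77.5 and 92.4 CPM in wt and 68.6 and 74.6 in KO, and Ndufs7 at 86.9 and 94.3 in wt and 92.3 and 96.7 in KO, where the groups overlapped. Among the 29 accessory subunits, 1 rose and 2 fell. Ndufab1, the mitochondrial acyl carrier protein, which is part of complex I and also of fatty acid synthesis and iron-sulphur cluster assembly, was at 105.5 and 101 CPM in wt, 119 and 112 in het, and 128 and 137 in KO (log2 fold change 0.36 ± 0.13, adjusted p = 0.0336). Its libraries did not overlap between any of the groups, but it was not called in het against wt (edgeR adjusted p = 0.812). The call of Ndufab1 in KO against wt was lost under 7 of the 17 alternatives, DESeq2 included.

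Ndufa13 and Ndufb11 fell. Ndufa13, also known as GRIM-19 and needed for assembly of the complex, was at 88.6 and 81.0 CPM in wt, 88.3 and 79.2 in het, and 60.5 and 61.2 in KO. Ndufb11, an X-linked subunit of the membrane arm, was at 98.5 and 103 CPM in wt, 103 and 84.5 in het, and 73.4 and 73.1 in KO. In both genes the KO libraries agreed closely and lay below the other 4. Their log2 fold changes were -0.48 ± 0.15 and -0.46 ± 0.14 (edgeR adjusted p = 0.0142 and 0.0163). Each lost its call under 9 of the 17 alternatives, DESeq2 included.

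In complex II, 2 of 4 genes were called, in opposite directions. Sdha, the flavoprotein that oxidises succinate (ENSMUSG00000021577, chromosome 13 from 74322254 to 74350280), was at 234 and 219 CPM in wt, 236 and 235 in het, and 404 and 419 in KO. The wt and het libraries were nearly level and both KO libraries lay far above them, 1.81-fold over wt (log2 fold change 0.86 ± 0.10, edgeR adjusted p = 1.17e-06). It had the lowest adjusted p of the members in this comparison, and its adjusted p was at most 0.000275 over the 17 alternatives. Sdhb, which carries the electrons on from Sdha, was at 188 and 189 CPM in wt and 168 and 206 in KO, with the wt values between the KO values.

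The membrane anchor of complex II is made of Sdhc and Sdhd. Sdhc was at 123 and 121 CPM in wt, 104 and 117 in het, and 82.5 and 103.5 in KO, and fell 1.32-fold (log2 fold change -0.40 ± 0.14, edgeR adjusted p = 0.0336). The call of Sdhc was lost under 7 of the 17 alternatives, among them DESeq2 and library size alone (adjusted p = 0.863). Sdhd was at 155 and 152 CPM in wt and 152 and 178 in KO, where the groups overlapped. The ratio of Sdha to Sdhc per kilobase was 2.08 and 1.98 in wt, 2.48 and 2.2 in het, and 5.35 and 4.43 in KO.

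Complex III hands electrons from ubiquinol to cytochrome c. None of its 9 members was called in KO against wt by edgeR, DESeq2 or limma-voom, and none had an unadjusted p under 0.05, beside 41.8% of all genes. Their log2 fold changes ran from -0.17 to 0.28, the narrowest range of the complexes. Cyc1, the cytochrome c1 gene, was at 188 and 191 CPM in wt, 213 and 174.5 in het, and 196 and 198.5 in KO. Uqcrfs1, the Rieske iron-sulphur protein, was at 136 and 140.5 CPM in wt, 123 and 136 in het, and 130 and 129 in KO. Uqcrb was at 172.5 and 197 CPM in wt and 172 and 176 in KO, and Uqcrc1 at 360 and 406 in wt and 350 and 380 in KO. With library size alone 5 of the 9 were called higher, beside 3878 of all 10952 genes.

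Complex IV reduces oxygen. Cox7a2l, also known as SCAF1 or COX7RP, resembles the Cox7a subunits and is known for joining complexes III and IV into a supercomplex. Cox7a2l (ENSMUSG00000024248, chromosome 17 from 83501918 to 83517330) was at 101 and 137 CPM in wt, 124 and 94.9 in het, and 69.7 and 59.2 in KO. Replicates differed within each group, yet both KO libraries lay below the other 4, and it fell 1.83-fold (log2 fold change -0.87 ± 0.17, edgeR adjusted p = 0.000512). Its relative Cox7a2, the general subunit of the complex, averaged 98.6 ± 1.98 CPM in wt, 122 ± 26.9 for het and 122 ± 0.77 for KO (SD, n = 2 each) and was not called (edgeR adjusted p = 0.111). The ratio of Cox7a2l to Cox7a2 per kilobase was 0.637 and 0.841 in wt, 0.538 and 0.564 in het, and 0.349 and 0.299 in KO.

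Of the 11 general subunits of complex IV, 1 rose and 2 fell. Cox6a1, the ubiquitous form of a small subunit, was at 282.5 and 336 CPM in wt, 334 and 320 in het, and 224 and 250 in KO (log2 fold change -0.38 ± 0.11, edgeR adjusted p = 0.00962). Its KO libraries lay below all others, but its call was lost under 5 of the 17 alternatives, library size alone among them. Cox5b, which binds zinc, was at 182 and 177 CPM in wt, 206 and 178 in het, and 145 and 147 in KO, with a log2 fold change of -0.30 ± 0.11 and an adjusted p of 0.0493 that 12 of the 17 alternatives did not keep. Cox7c rose from 117 and 121.5 CPM in wt to 157 and 160 in KO (log2 fold change 0.41 ± 0.13, adjusted p = 0.0232), but het replicate 2 was as high, at 157, and it lost its call under 6 alternatives. Cox4i1, the subunit by which nuclear control of the complex is often followed, was at 313 and 310 CPM in wt, 340 and 269 in het, and 292 and 309 in KO. Cox8a was at 214 and 234 CPM in wt and 228 and 254 in KO, Cox7b at 87.8 and 106 and at 105 and 91.3, and Ndufa4 at 128 and 120 and at 153 and 150, and these 3 were not called.

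**Figure D3:**
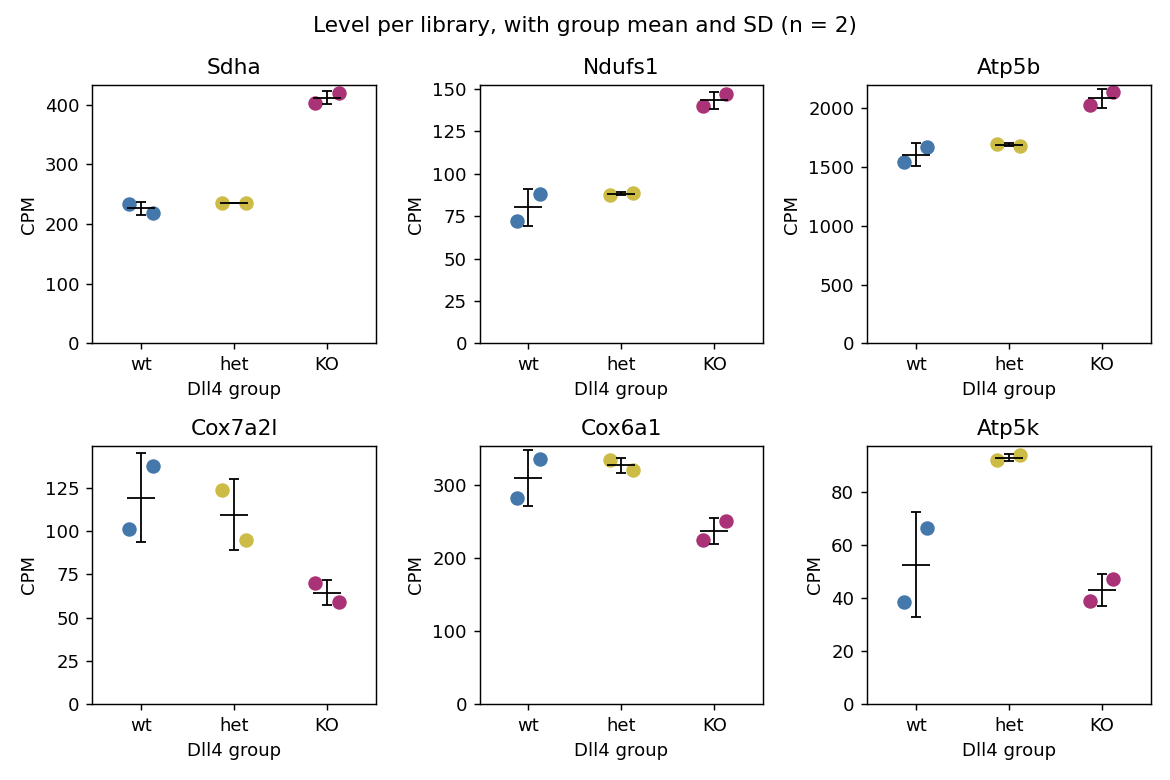
CPM (y axis, from 0) per library for 6 members by Dll4 group (x axis), with horizontal bars for the group mean and whiskers for the SD of 2 libraries. Sdha, Ndufs1 and Atp5b lie higher and Cox7a2l and Cox6a1 lower in both KO libraries than in the other 4, and Atp5k lies at 91.9 and 93.9 CPM in het against 38.5 to 66.5 in the other libraries.

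Complex V, the ATP synthase, joins a catalytic head to a membrane rotor. The subunits that form the catalytic hexamer rose together. Atp5b was at 1536 and 1669 CPM in wt, 1695 and 1678 in het, and 2023 and 2137 in KO, 1.30-fold over wt (log2 fold change 0.38 ± 0.08, edgeR adjusted p = 0.00157). Atp5a1, the alpha subunit, was at 841 and 794 CPM in wt, 820 and 792 in het, and 934 and 1048 in KO (0.28 ± 0.09, adjusted p = 0.0238), and its call was lost without wt replicate 5, without KO replicate 2 and with the length trend removed. In both genes the KO libraries were the highest. The ratio of Atp5a1 to Atp5b per kilobase stayed between 0.358 and 0.425 in all 6 libraries.

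Genes called lower were 1 of 5 in the head and central stalk and 1 of 4 in the peripheral stalk. Atp5d, the delta subunit of the central stalk, was at 256 and 233 CPM in wt, 290 and 242 in het, and 197 and 194 in KO (log2 fold change -0.32 ± 0.11, edgeR adjusted p = 0.0292). Atp5o, the peripheral stalk subunit that confers oligomycin sensitivity, was at 230 and 241 CPM in wt, 210 and 207 in het, and 170 and 187 in KO (-0.40 ± 0.11, adjusted p = 0.00634). A second row named Atp5o overlaps it in the annotation. In both genes the KO libraries lay below all others, but Atp5d stood at 0.04 with library size alone and lost its call under 10 of the 17 alternatives, DESeq2 included, and Atp5o lost its call under 6. The ratio of Atp5b to Atp5d per kilobase was 2.91 and 3.48 in wt, 2.84 and 3.37 in het, and 4.98 and 5.34 in KO.

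The c ring, through which protons pass, is made of a single protein encoded by Atp5g1, Atp5g2 and Atp5g3. Atp5g3 was at 455.5 and 439 CPM in wt, 415 and 393 in het, and 322 and 350 in KO, and fell 1.33-fold (log2 fold change -0.41 ± 0.10, edgeR adjusted p = 0.00209). It took 61.0% and 60.1% of the counts of the 3 genes in wt, 57.2% and 57.0% in het, and 51.5% and 52.5% in KO. That share did not overlap between any of the groups, but Atp5g3 was not called in het against wt (edgeR adjusted p = 0.72). Both het libraries lay above both wt libraries in 19.2% of all genes and below them in 18.8%. The call of Atp5g3 was lost under 5 of the 17 alternatives, library size alone among them. Atp5g1 was at 163 and 165 CPM in wt, 178 and 170 in het, and 179 and 178 in KO. Atp5g2 was at 129 and 126 CPM in wt and 125 and 138 in KO, and neither was called. Atp5g2 has processed copies that took 735 counts beside its own 2824, so its values are uncertain.

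Loss of a single copy was compared with wt. No member was called by the edgeR quasi-likelihood test, DESeq2 or limma-voom, beside 0.173% of all genes tested (0.128% higher and 0.0457% lower). At an unadjusted p under 0.05 there were 8 of 78, beside 8.15% of all genes, with 6 higher and 2 lower. The median log2 fold change was 0.015, beside 0.007 over all genes. The members with the lowest adjusted p, Atp5k (0.86 ± 0.21, adjusted p = 0.145) and Atp5e (0.56 ± 0.17, adjusted p = 0.275), both encode small ATP synthase subunits. Atp5k was called without wt replicate 5 and without the filter on low counts, and Atp5j without het replicate 3. Het replicate 2 held the highest summed level for complexes I and IV of all libraries, and het replicate 3 was among the lowest for both.

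KO was also compared with het, which shares the KO libraries with the comparison above. Of 78 members, 13 (16.7%) were called, beside 31.2% of all genes. There were 5 that rose (13.9% of all genes) and 8 that fell (17.2% of all genes), and the median was -0.01, beside -0.02. Sdha (log2 fold change 0.81 ± 0.10), Ndufs1 (0.70 ± 0.13), Atp5b (0.30 ± 0.08) and Atp5a1 (0.30 ± 0.09) rose, as did Cox6b1 (0.35 ± 0.11), which sits where complex IV forms dimers. Cox7a2l (-0.74 ± 0.17), Cox6a1 (-0.46 ± 0.11), Ndufa13 (-0.45 ± 0.15), Atp5d (-0.43 ± 0.11), Cox5b (-0.39 ± 0.11) and Atp5g3 (-0.27 ± 0.10) fell. Of the 17 alternatives, Atp5g3 kept its call in 4, Ndufa13 in 6, Cox5b in 10 and Atp5d in 12. Cox6a1, Atp5a1 and Cox6b1 kept theirs in 13. DESeq2 did not call Atp5g3, Ndufa13, Cox5b or Cox6b1. In 19 members both KO libraries lay above both het libraries and in 26 both lay below, beside 31.5% and 33.0% of all genes. With library size alone 38 were called higher and 1 lower, beside 3930 and 1016 of all 10952 genes. With the length trend removed 27 and 3 members were, beside 1534 and 1745 of 10903 genes. The count was 7 without KO replicate 1 and 7 without KO replicate 2. Markers of other cells moved in the same comparison, with 9 of 9 tested cardiomyocyte markers lower (median log2 fold change -1.99), 3 of 7 of mural cells and fibroblasts and 2 of 5 of macrophages, and their part in these calls was not tested.

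Atp5k and Ndufa3 were called lower against het but not against wt. Atp5k, the e subunit, which helps ATP synthase form dimers (ENSMUSG00000050856, chromosome 5 from 108433244 to 108434448), was at 38.5 and 66.5 CPM in wt, 91.9 and 93.9 in het, and 38.7 and 47.3 in KO. The het libraries lay above the other 4, and KO was 2.17-fold lower than het (log2 fold change -1.12 ± 0.20, edgeR adjusted p = 0.000299), a call kept in all 17 alternatives. Against wt the groups overlapped (-0.26 ± 0.21, adjusted p = 0.388). Ndufa3 was at 88.2 and 89.2 CPM in wt, 120 and 102 in het, and 62.7 and 78.9 in KO (-0.63 ± 0.15 against het, adjusted p = 0.0025). Its call was kept in 13 of the 17 alternatives and lost with library size alone, among others. Cox6b1 was at 216 and 237 CPM in wt, 210 and 180 in het, and 242 and 253 in KO, so that here het was the lowest group. Sdha and Ndufs1 also kept their calls in all 17 alternatives of this comparison, while Cox7a2l lost it with library size alone (adjusted p = 0.0881) and Atp5b without KO replicate 2 (adjusted p = 0.105).

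The mitochondrially encoded partners of these subunits differed between replicates more than the nuclear genes did. Of the 13 messenger RNAs, 1 fell in KO against wt and 4 in KO against het, beside 17.3% and 17.2% of all genes, and none rose. mt-Nd6, the one messenger RNA encoded on the light strand, was at 123 and 167 CPM in wt, 150 and 260 in het, and 30.9 and 27.7 in KO (log2 fold change -2.29 ± 0.32, edgeR adjusted p = 0.00416). mt-Nd4 was at 1345 and 2062 CPM in wt and 409 and 303 in KO, which missed the threshold (-2.26 ± 0.53, adjusted p = 0.06). The median of the 13 was -1.02 in KO against wt and -1.55 in KO against het. The genes that fell against het, mt-Nd2, mt-Nd4, mt-Nd4l and mt-Nd6, encode subunits of complex I, but DESeq2 called 9 of the 13 lower there and 4 against wt. Against het mt-Nd6 kept its call in all 16 alternatives run for it, whereas mt-Nd2 lost it under 9, mt-Nd4 under 7 and mt-Nd4l under 5. Against wt mt-Nd6 lost it under 4, among them those without KO replicate 1 and without KO replicate 2.

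Few assembly factors were called. In KO against wt, where 14.7% of all genes rose and 17.3% fell, 1 of 16 for complex I rose, Foxred1 (0.76 ± 0.21, edgeR adjusted p = 0.00791), an oxidoreductase-like assembly factor. Of 19 for complex IV, Cox15, an enzyme of heme A synthesis, rose (0.69 ± 0.20, adjusted p = 0.0116) and Coa3 fell (-0.52 ± 0.17, adjusted p = 0.0253). None of 4 for complex II, 5 for complex III and 4 for complex V was called by edgeR, DESeq2 or limma-voom, and 1 of them, in the complex V list, had an unadjusted p under 0.05. DESeq2 called no assembly factor in this comparison. With library size alone 3 were higher for complex I, 1 for complex III, 5 for complex IV and 4 of 4 for complex V. The median log2 fold change was 0.73 for the last, and 3878 of all 10952 genes were called higher in that fit. With the length trend removed 2 of 4 for complex V were higher, beside 1618 of 10903 genes.

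Carriers and exporters around the chain numbered 20, of which 2 rose and 2 fell in KO against wt, beside 14.7% and 17.3% of all genes. With library size alone 8 were called higher and 1 lower, beside 3878 and 1034 of all 10952 genes. Slc25a3, which brings phosphate into mitochondria for ATP synthase, was at 500 and 515 CPM in wt, 472 and 515.5 in het, and 289 and 284 in KO. Its wt and het libraries were level and its KO libraries far lower, 1.77-fold below wt (log2 fold change -0.82 ± 0.09, edgeR adjusted p = 1e-06). Vdac2, an outer membrane channel, fell by 0.28 (adjusted p = 0.0317) but stood at 0.08 with library size alone. Coq5, of ubiquinone synthesis, and Etfdh, which feeds electrons from fatty acid oxidation to ubiquinone, rose by 0.84 and 0.56 (adjusted p = 0.00601 and 0.00952). Of the 17 alternatives, Coq5 kept its call in 15, Etfdh in 14 and Vdac2 in 9. DESeq2 called 1 of the 20 higher and 1 lower, beside 1075 and 1408 of all 10952 genes, and did not call Etfdh or Vdac2. The ATP exporter genes Slc25a4 and Slc25a5 were not called.

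Pyruvate oxidation and the citric acid cycle supply the chain with electrons. In KO against wt 5 of 19 of these genes rose and none fell, beside 14.7% and 17.3% of all genes. In KO against het 8 rose and none fell, beside 13.9% and 17.2%. The median log2 fold change was 0.14 and 0.27. With library size alone 13 and 16 were called higher, beside 3878 and 3930 of all 10952 genes. Ogdh, of the 2-oxoglutarate dehydrogenase complex, was at 128 and 144 CPM in wt, 115 and 126 in het, and 230.5 and 246 in KO (0.82 ± 0.12 against wt, edgeR adjusted p = 1.53e-05). Citrate synthase, Cs, was at 213 and 235 CPM in wt, 228 and 238 in het, and 351 and 323 in KO (0.59 ± 0.10, adjusted p = 0.000159). Idh3a, a subunit of the NAD-dependent isocitrate dehydrogenase, rose by 0.64 (adjusted p = 0.00114). In Ogdh, Cs and Idh3a both KO libraries lay above the other 4, as for Sdha. Of the rest of complex II, which also serves in the cycle, Sdhb (-0.01) and Sdhd (0.10) were not called and Sdhc (-0.40) fell.

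Among 13 regulators of mitochondrial biogenesis tested, 5 rose and 1 fell in KO against wt, beside 14.7% and 17.3% of all genes. DESeq2 called 2 higher and 1 lower, the fit with the length trend removed 3 and 1, and library size alone 8 and 1. Over all genes these fits called 1075 higher and 1408 lower, 1618 and 1785, and 3878 and 1034. Polg, the mitochondrial DNA polymerase, was at 55.0 and 63.1 CPM in wt, 55.3 and 67.7 in het, and 123 and 111.5 in KO (log2 fold change 1.002 ± 0.153, edgeR adjusted p = 3.44e-05). Pprc1, a coactivator related to PGC-1, rose by 0.92 (adjusted p = 0.000188), and Gabpa, Nrf1 and the mitochondrial helicase gene Twnk rose by 0.48, 0.47 and 0.91 (adjusted p = 0.0315, 0.0322 and 0.0333). DESeq2 did not call these 3, and Gabpa lost its call under 6 of the 17 alternatives. Yy1, a zinc finger factor, fell, from 70.6 and 60.1 CPM in wt and 65.5 and 75.0 in het to 15.2 and 13.9 in KO (-2.17 ± 0.19, adjusted p = 1.75e-08). Ppargc1a, the gene of PGC-1 alpha, stayed under 3 CPM in every library and was not tested, and Tfam was not called.

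Transcript length separated the members from most genes. The median length of their principal transcripts was 863 bases, beside 2953 over all tested genes, and 47 members were shorter than 1000 bases. In KO against wt the 738 tested genes of that length had a median log2 fold change of -0.24 (-0.23 without ribosomal protein genes), whereas the 47 members had a median of -0.01. From 1000 to under 2000 bases the medians were -0.145 over all 2321 genes and -0.01 over 23 members, and from 2000 to under 4000 bases 0.14 over 4414 genes and 0.32 over 7 members. The longer class holds Sdha, Ndufs1, Ndufab1 and Atp5a1, which rose, and Sdhc, which fell. Over the 78 members Spearman's rho of length with the change was 0.0048 and over 10903 genes 0.0732, as a description, since genes are not independent replicates. The part of transcript length in the calls was not tested beyond the removal of its trend given above.

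**Figure D4:**
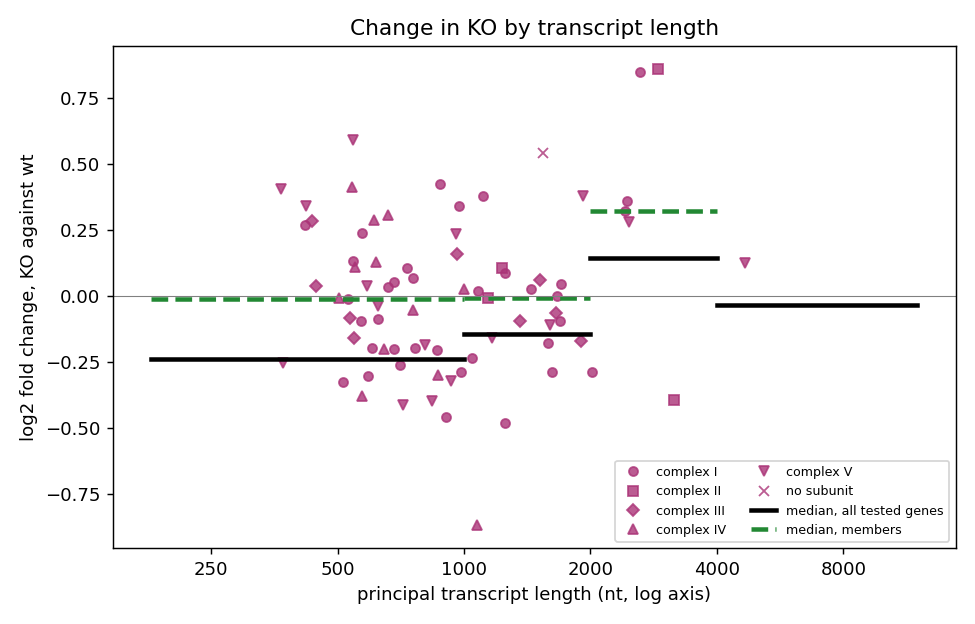
Log2 fold change of KO against wt (y axis) by principal transcript length in bases (x axis, log scale) for the 78 tested members, with symbols for the complexes, solid bars for the median of all tested genes in a length class and dashed bars for the median of the members. Under 1000 bases the medians are -0.24 and -0.01, and members with large changes occur at both short and long lengths.

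Several members share sequence with other rows. A near copy, with at least 95% identity over 200 bases or more, was found in the annotation for 27 of the 86, and 30 overlap exons of another gene. The largest such share was that of Atp5l, a small ATP synthase subunit with 9 copies that took 1026 counts beside its own 1305. Its level was 32.9 and 59.2 CPM in wt, 69.8 and 42.3 in het, and 67.5 and 67.1 in KO, and it was not called. Ndufb4 (367 counts in its copy beside 767), Ndufb5 (470 beside 2087) and Ndufb6 (160 beside 1633) are uncertain for the same reason. The near copies of the called members took 21 counts or fewer over the 6 libraries.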

How the data were processed

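The authors deposited expected counts, gene-level read estimates with decimals, in a single table with a column per library. The submitters' processing notes name CASAVA, cutadapt, RSEM and genome build GRCm38 and give no versions. SMART-Seq v4 amplification, which does not mark strand, preceded Nextera XT preparation per the labels' protocols, and the labels disagree on single or paired reads. Symbols, positions and lengths came from GENCODE M21 on GRCm38, which named 97.9% of rows.

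Expected counts were rounded. In R 4.3.3, edgeR 4.0.16 (TMM factors, filterByExpr with its minimum count of 10, robust quasi-likelihood F tests) was fitted to all 6 libraries in one model with 3 residual degrees of freedom. Calls required an adjusted p under 0.05 by the Benjamini-Hochberg method across the 10952 genes tested, and each adjusted p printed is from this test unless another tool is named. CPM use TMM-scaled library sizes, and CPM per kilobase the principal transcript. The limit for a count of 0 covers counting error alone. The scripts were tested on simulated counts. DESeq2 1.42.0 and limma 3.58.1 served as alternatives, with other scalings, filters and trend corrections and with each library left out.

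The members, the gene lists and the tests were chosen with earlier results of these data known. Named were Dll4, every called member, the 2 highest members per kilobase in each complex, the paralogous subunits, and up to 4 genes per list by adjusted p. Other genes named were picked after their values were seen. A few genes that this rule or the lists cover are not reported here by name, and their values remain in the counts.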

Additional observations from a re-analysis of the deposited data

How the results depend on the processing

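For KO against wt, the count of called members, 15, was 42 with library size alone (41 higher, 1 lower, median 0.36), 8 with DESeq2 (4 lower) and 24 with the length trend removed (22 higher, 2 lower, median 0.19). A length trend fitted without ribosomal protein genes, chosen after seeing the data, gave 20 higher and 2 lower with a median of 0.19. Without the filter 12 were higher (median 0.048), and after thinning 5 were lower. Leaving out single libraries gave 6 to 19 called, 3 to 10 higher and 1 to 10 lower, medians of -0.069 to 0.026, and 2043 to 3815 of all genes. For KO against het, 13 became 39 with library size alone (38 higher, 1 lower, median 0.37), 30 with the length trend removed (27 higher, 3 lower, median 0.20) and 20 with the trend fitted without ribosomal protein genes (17 higher, 3 lower, median 0.18). Leaving out single libraries gave 7 to 14 called, 2 to 7 higher and 3 to 11 lower, with medians of -0.116 to 0.088. For het against wt, 1 member was called higher without the filter and 0 to 1 with a library left out, with medians of -0.049 to 0.118. All genes called there, 19, were 150 without the filter, 11 with limma-voom, 29 after thinning, 33 with the trend fitted without ribosomal protein genes, and 2 to 76 with a library left out.

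The log2 fold change turned positive with library size alone for Atp5d (0.04), Cox5b (0.063) and Vdac2 (0.083) in KO against wt and for Vdac2 (0.10) and Atp5g3 (0.11) in KO against het, and for Atp5g3 there with the length trend removed (0.023). The scaling alternative moved the median of all genes as well, and the cause of the other differences was not tested. No paired analysis was possible because no 2 groups share more than 1 replicate number. Where a group is left with 1 library, that library is assumed to vary like the other groups. The wt and het libraries, with at most 3165552 counts, carry more counting error than the KO libraries.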
